A study of Mus musculus with 6 samples.

Results

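The unfolded protein response and the integrated stress response were examined in primary murine hepatocytes through 35 genes of the endoplasmic reticulum (ER) and its stress signaling. The genes were taken from a list of symbols that was chosen with earlier results of these data known. All 35 were found among the 41388 Ensembl genes of the deposited table. They comprise 11 ER chaperones and their cofactors, 4 protein disulfide isomerases, 7 stress sensors and transcription factors, 4 target genes of ATF4 and CHOP, and 9 genes of ER degradation and translocation. RNA was sequenced from hepatocytes of C57BL/6J mice, isolated by collagenase digestion and treated for 24 h with adenovirus, either encoding β-galactosidase (β-gal, the control protein, replicates 1, 2 and 3) or encoding ALOXE3 (replicates 7, 8 and 9). Both groups therefore carried an adenovirus, and no culture without virus was analysed here. ALOXE3 (eLOX3) is a lipoxygenase-family enzyme best known from the epidermis. The comparison answers which transcripts differ when this enzyme is overexpressed. Nothing in the labels says whether replicates came from separate animals or cultures, so p-values measure the spread between these libraries, which may be technical.

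Secreted and membrane proteins fold in the ER, and hepatocytes, which secrete most plasma proteins, hold a large ER. When unfolded proteins accumulate, 3 sensors of the ER membrane respond. IRE1 (Ern1) splices the mRNA of Xbp1, PERK (Eif2ak3) phosphorylates the translation factor eIF2, and ATF6 is cleaved to release a transcription factor. XBP1 and ATF6 act on genes of chaperones and of ER degradation, partly through the ER stress response element (ERSE) in promoters. Phosphorylated eIF2, which other kinases also produce, favors translation of ATF4, and ATF4 with its target CHOP (Ddit3) acts on genes of amino acid supply and of feedback on eIF2. This shared arm is called the integrated stress response.

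Library sizes, derived from the whole-number steps of the values, were 29575553 to 32431318 reads with β-gal and 25521908 to 30399198 reads with ALOXE3. Values are RPKM, reads scaled by gene length and by library size, so that levels can be compared between genes. Aloxe3 measured 2.04, 2.06 and 1.74 RPKM in the β-gal libraries and 42.3, 45.8 and 56.3 RPKM in the Aloxe3 libraries, higher in 3 of 3 (log2 fold change 4.05, SE 0.101, adjusted p = 4.74e-06 from limma). All replicate pairs differed by more than counting noise (chi-square per degree of freedom 3.76 to 11.0), and the highest values, 9.93 and 11.0, were those of Aloxe3 replicate 9 with the other Aloxe3 libraries. Of the hepatocyte markers, Alb had 4360 to 4550 RPKM, while Cyp2e1 had 2.03 to 2.86 RPKM and Cps1 0.915 to 1.05 RPKM with β-gal and 1.29 to 1.64 RPKM with Aloxe3. Of the 10 hepatocyte markers used, 1 had an unadjusted p under 0.05 with a higher and 2 with a lower level with Aloxe3 (30.0% in all, against 12.7% of all genes tested). Summed over these markers, the level was 5370 to 5410 RPKM with β-gal and 5200 to 5350 RPKM with Aloxe3. The 7 Kupffer cell markers summed to 151 to 155 RPKM with β-gal and to 133 to 146 RPKM with Aloxe3, nearly all of it Cd68, and the defining marker Clec4f was at most 0.0951 RPKM. Cholangiocyte markers (5 genes) summed to 1510 to 1590 and 1570 to 1720 RPKM, mostly Spp1, endothelial markers (7 genes) to 28.1 to 33.0 and 28.2 to 32.2 RPKM, and stellate cell markers (7 genes) to 3.48 to 4.02 and 3.6 to 4.0 RPKM, with Lrat at 0 in every library. The part of these cell types in the results was not tested, and in bulk RNA fewer cells of a type cannot be told apart from less RNA per cell.

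Promoter windows of RefSeq (GRCm38.p6), from 250 bases before to 50 bases after a gene's start, were held for 30 of the 35 genes. No window was held for Hyou1, Manf, Atf6, Sec61a1 and Derl1. ERSE was searched on both strands as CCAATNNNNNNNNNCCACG. It was found in 9 of the 30 genes (30.0%), against 37 of 27025 genes with a window (0.137%). The sites are shown because XBP1 and ATF6 are known to act through this element. The list was chosen as genes of this response, so the higher share may follow from that choice and is not a result. They lay in 6 of the ER chaperone genes and in Pdia6, Syvn1 and Derl3. Each is given 5′ to 3′ in the direction of the motif with the fixed letters in capitals, after its position from the start (the first transcribed base is 1) and its strand relative to the gene. The start is that of the RefSeq transcript and can differ from the GENCODE gene limits given with the values.
Hspa5, -65 to -47, same strand: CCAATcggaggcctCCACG
Hsp90b1, -212 to -194, same strand: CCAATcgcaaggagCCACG
Hsp90b1, -107 to -89, opposite strand: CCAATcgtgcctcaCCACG
Dnajc3, -105 to -87, same strand: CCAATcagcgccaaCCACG
Calr, -162 to -144, opposite strand: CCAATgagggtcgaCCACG
Canx, -145 to -127, same strand: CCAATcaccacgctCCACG
Creld2, -126 to -108, opposite strand: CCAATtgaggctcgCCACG
Pdia6, -98 to -80, same strand: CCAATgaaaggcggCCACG
Syvn1, -44 to -26, same strand: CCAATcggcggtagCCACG
Derl3, -156 to -138, opposite strand: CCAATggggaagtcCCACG

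Hsp90b1 held 2 such sites on opposite strands, and each of the other 8 genes held 1. Only exact matches were counted, so variants of the element, in Hspa5 or elsewhere, are not in these numbers. A shorter form, ERSE-II (ATTGG, then any base, then CCACG, where ATTGG is the reverse complement of CCAAT), was found in 2 of the 30 genes and in 12 of 27025 genes (0.0444%).
Dnajb11, 8 to 18, same strand: ATTGGcCCACG
Herpud1, -52 to -42, same strand: ATTGGgCCACG

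CCAAT alone, which is part of each ERSE, was present in 24 of the 30 genes (80.0%) and in 41.1% of all genes. The core of the unfolded protein response element, TGACGTGG, was in 0 of the 30 genes and in 0.714% of all genes, which says only that these letters are not in these windows. The element of ATF4 and C/EBP factors, CARE, searched as TGATGNAA, was found in Atf3, Trib3, Asns, Chac1 and Herpud1, 5 of the 30 genes (16.7%), against 4.51% of all genes. The shares of ERSE-II, CCAAT and CARE may also follow from the choice of the genes. A match is a description of the sequence and not a site of binding. The 250 bases before the start are shown for Hspa5, Hsp90b1, Herpud1 and Asns, the genes with 1 ERSE, 2 ERSE, ERSE-II with CARE, and CARE alone. They are written 5′ to 3′ on the strand of the gene, the fixed letters of each match are in capitals, and a match on the opposite strand appears as its reverse complement.
Hspa5, chr2:34771840-34772089, forward strand: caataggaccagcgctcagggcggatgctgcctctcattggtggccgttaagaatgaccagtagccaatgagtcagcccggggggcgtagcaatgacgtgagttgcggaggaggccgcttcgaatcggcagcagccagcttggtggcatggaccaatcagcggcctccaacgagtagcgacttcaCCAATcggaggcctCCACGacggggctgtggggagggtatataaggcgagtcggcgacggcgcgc
Hsp90b1, chr10:86705445-86705694, reverse strand: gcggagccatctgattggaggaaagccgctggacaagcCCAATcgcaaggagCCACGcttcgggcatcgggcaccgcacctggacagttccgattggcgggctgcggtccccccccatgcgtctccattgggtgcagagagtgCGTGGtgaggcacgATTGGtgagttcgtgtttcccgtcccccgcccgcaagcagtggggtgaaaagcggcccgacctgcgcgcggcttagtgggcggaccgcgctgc
Herpud1, chr8:94386179-94386428, forward strand: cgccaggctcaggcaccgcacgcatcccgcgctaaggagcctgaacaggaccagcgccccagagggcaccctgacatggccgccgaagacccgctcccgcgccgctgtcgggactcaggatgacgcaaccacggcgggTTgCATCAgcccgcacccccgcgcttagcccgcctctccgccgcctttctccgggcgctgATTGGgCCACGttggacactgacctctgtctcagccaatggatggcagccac
Asns, chr6:7693210-7693459, reverse strand: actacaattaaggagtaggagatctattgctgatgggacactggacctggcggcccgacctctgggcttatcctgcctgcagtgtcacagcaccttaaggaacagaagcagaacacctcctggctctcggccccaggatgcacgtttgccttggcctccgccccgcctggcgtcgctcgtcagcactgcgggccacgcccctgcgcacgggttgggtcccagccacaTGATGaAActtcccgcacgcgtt

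The ER stress genes were well expressed in these cells. All 35 reached the mean level of 0.5 RPKM required for testing, as did 12693 genes in all, with mean levels over the 6 libraries from 5.68 RPKM (Derl2) to 437 RPKM (Hspa5). The lowest count behind any value was 526 reads, a counting error of 4.36%, and the highest 50691 reads, an error of 0.444%. Mean levels of 9 genes were above 100 RPKM, and those of 7 were below 20 RPKM. Hspa5, which encodes the ER HSP70 BiP, and Calr (mean 427 RPKM), the lectin chaperone calreticulin, were the most abundant, and their ranges overlapped. P4hb (266 RPKM), Pdia3 (221 RPKM), Pdia4 (211 RPKM) and Atf4 (206 RPKM) followed. Together the 35 genes took 0.928%, 1.01% and 0.96% of the library size in reads with β-gal and 1.02%, 1.08% and 1.02% with Aloxe3. The plot of levels by gene shows that the spread between libraries was small beside the differences between genes.

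**Figure D1:**
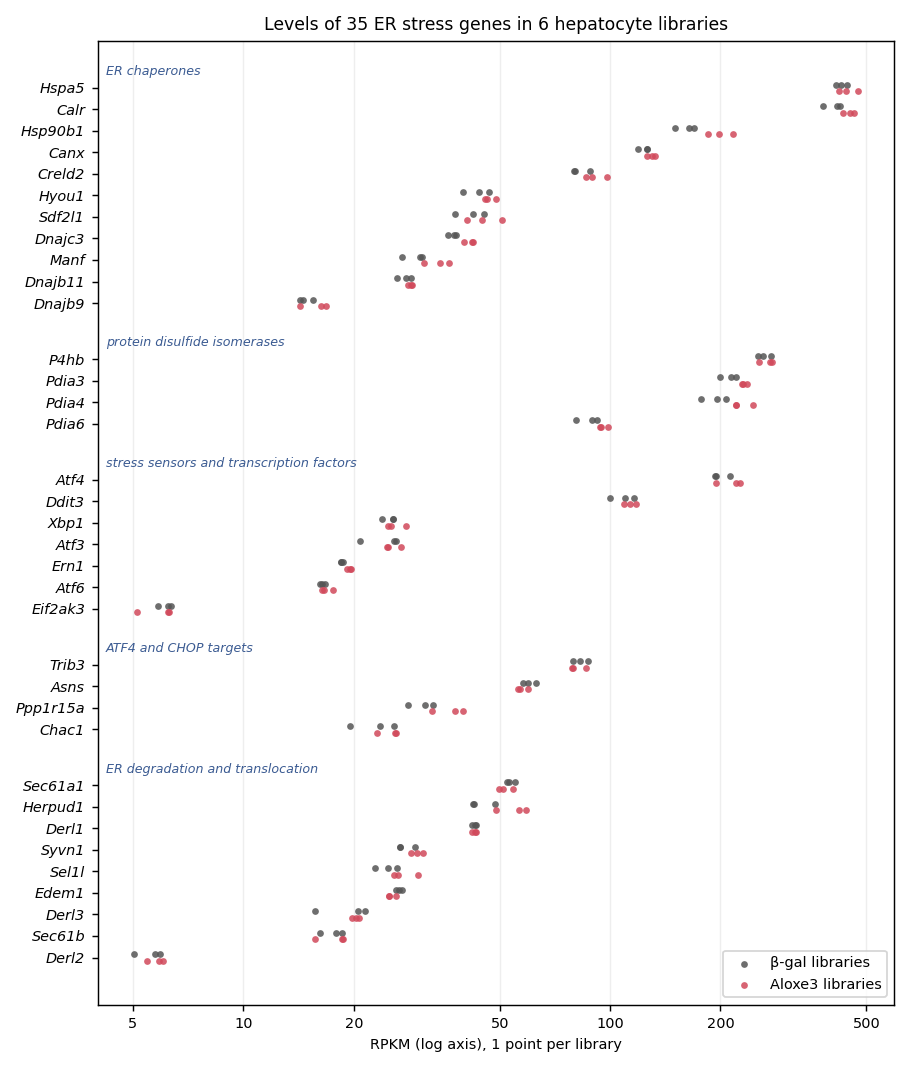
RPKM (log axis) of the 35 genes in each library, 1 point per library, β-gal in grey and Aloxe3 in red, ordered by role and by mean level. Levels run from a mean of 5.68 RPKM for Derl2 to 437 RPKM for Hspa5, and the 2 groups lie close together for each gene.

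No listed gene passed the test between groups. With limma on log2(RPKM + 1) and Benjamini-Hochberg adjustment over all genes tested, 0 of 35 had an adjusted p under 0.05, where 0.394% of all genes did (0.355% higher and 0.0394% lower with Aloxe3). The smallest adjusted p was 0.152. At an unadjusted p under 0.05 there were 9 of 35 (25.7%), all higher with Aloxe3, against 12.7% of all genes tested (7.31% higher and 5.42% lower). The 3 Aloxe3 values lay above the 3 β-gal values in 9 genes (25.7%) and below them in 0. Of all genes tested, 19.9% did not overlap, 11.2% higher and 8.71% lower with Aloxe3. An exact permutation test of 3 libraries against 3 gives such a gene a two-sided p of 0.1, the smallest it allows. The log2 fold change was positive in 30 genes (85.7%), against 52.4% of all genes, and the median over the list was 0.081, against 0.005. These shares are descriptions of the list, and no test over the list was made. The 95% intervals of the 35 log2 fold changes ended between -0.23 and 0.48.

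The reads per gene that the steps imply gave a second view. With voom in limma on these reads, Hsp90b1 (adjusted p = 0.00768), Herpud1 (adjusted p = 0.0379) and Pdia4 (adjusted p = 0.0473) were past the threshold, 3 of 35, against 1.36% of all genes. Their log2 fold changes on that scale, 0.31, 0.30 and 0.24, were close to those on the RPKM scale.

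**Figure D2:**
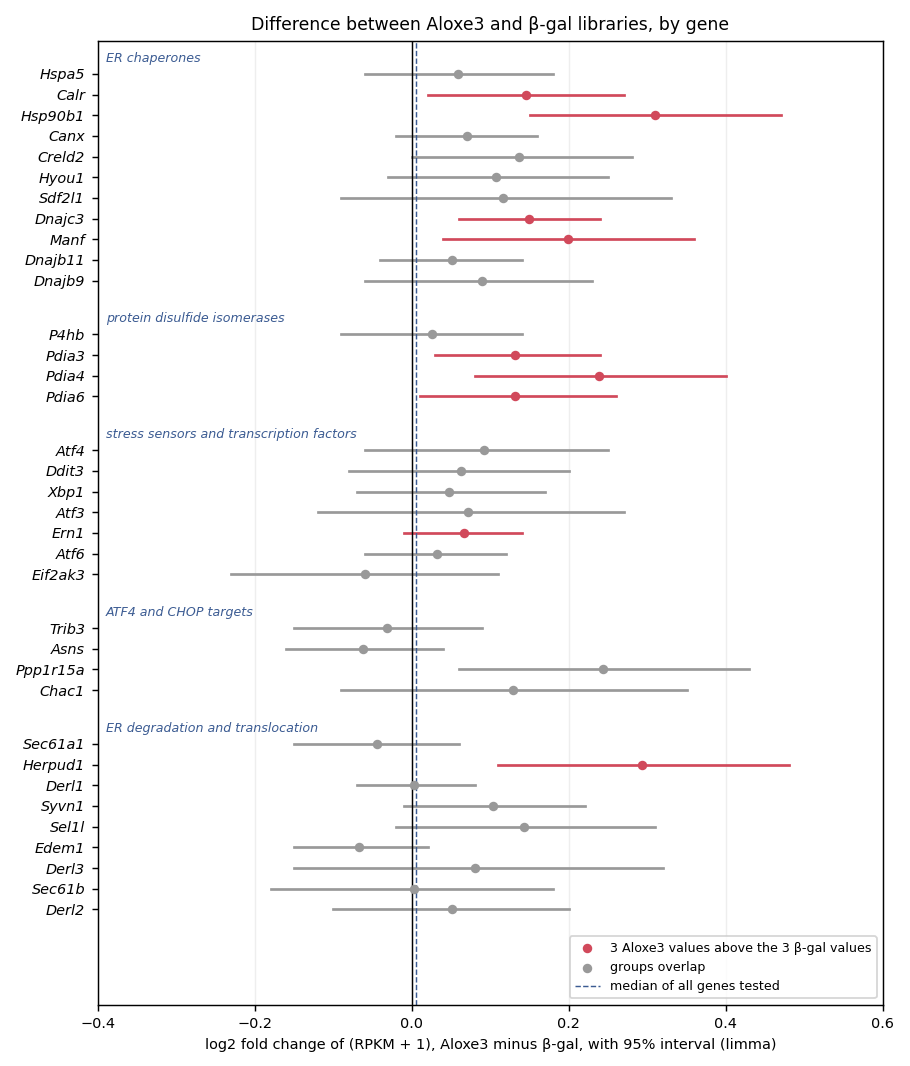
Log2 fold change of RPKM + 1 (Aloxe3 minus β-gal, limma) with its 95% interval for each of the 35 genes, in red where all 3 Aloxe3 values lie above the 3 β-gal values. The dashed line is the median of all genes tested (0.005), and Hsp90b1, Herpud1, Ppp1r15a and Pdia4 lie farthest to the right.

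Among the ER chaperones, all 11 log2 fold changes were positive (0.05 to 0.31, median 0.116), where 52.4% of all genes tested were positive. Among the 11, 4 (36.4%) had an unadjusted p under 0.05, against 12.7% of all genes tested. Hsp90b1 (chromosome 10, 86690209 to 86705509 in GRCm38), which encodes GRP94, the HSP90 of the ER, had 150, 169 and 164 RPKM with β-gal and 185, 217 and 198 RPKM with Aloxe3. The groups did not overlap, and replicate 8 was the highest. Its mean was 161 ± 9.6 RPKM against 200 ± 16 RPKM (SD, n = 3 each), 24.2% higher, with a log2 fold change of 0.31 (95% interval 0.15 to 0.47, adjusted p = 0.152 from limma).

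Dnajc3 (chromosome 14, 118937976 to 118981697) encodes p58IPK, a J-domain cochaperone of BiP. It had 36.1, 37.5 and 38.1 RPKM with β-gal and 40.0, 42.0 and 42.3 RPKM with Aloxe3, without overlap (log2 fold change 0.15, 95% interval 0.06 to 0.24, adjusted p = 0.24 from limma). Manf (chromosome 9, 106838312 to 106891979), a small secreted ER stress protein, had 27.1, 30.7 and 30.3 RPKM against 31.0, 36.3 and 34.3 RPKM (log2 fold change 0.20, 95% interval 0.04 to 0.36, adjusted p = 0.315 from limma). The lowest Aloxe3 value of Manf was just above the highest β-gal value.

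Calr, at 380, 423 and 415 RPKM with β-gal and 431, 464 and 451 RPKM with Aloxe3, was the fourth chaperone gene without overlap (log2 fold change 0.15, SE 0.052), 4 of 11 (36.4%) against 19.9% of all genes tested. Hspa5 (chromosome 2, 34771970 to 34777547), the most abundant of all 35 and the classic reporter of the response, had 427, 443 and 412 RPKM against 440, 475 and 422 RPKM. Its groups overlapped, and the log2 fold change of 0.06 had a 95% interval of -0.06 to 0.18 (adjusted p = 0.677 from limma). It was 0.013 without Aloxe3 replicate 8, 0.098 without Aloxe3 replicate 9 and 0.033 without β-gal replicate 3. Canx (calnexin), Creld2, Hyou1 (GRP170), Dnajb9 (ERdj4), Sdf2l1 and Dnajb11 (ERdj3) also overlapped between groups, with log2 fold changes of 0.07, 0.14, 0.11, 0.09, 0.12 and 0.05. Dnajb9, a target of spliced Xbp1, was the least abundant chaperone gene at 14.3, 15.5 and 14.5 RPKM with β-gal and 14.3, 16.3 and 16.8 RPKM with Aloxe3.

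Protein disulfide isomerases form and rearrange the disulfide bonds of secretory proteins. Of the 4 genes, 3 had non-overlapping groups and an unadjusted p under 0.05, against 19.9% and 12.7% of all genes tested, and the median log2 fold change was 0.132. Pdia4 (ERp72, chromosome 6, 47796141 to 47813430) had 177, 207 and 196 RPKM with β-gal and 220, 245 and 220 RPKM with Aloxe3, 17.9% higher on average (log2 fold change 0.24, 95% interval 0.08 to 0.40, adjusted p = 0.259 from limma). Replicate 8 was again the highest library and β-gal replicate 1 the lowest.

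Pdia3 (ERp57, chromosome 2, 121413775 to 121438687), the partner of calnexin and calreticulin, had 199, 220 and 214 RPKM against 229, 236 and 230 RPKM (log2 fold change 0.13, 95% interval 0.03 to 0.24). Pdia6 (P5, chromosome 12, 17266545 to 17284770) had 80.9, 92.2 and 89.0 RPKM against 94.4, 98.9 and 93.8 RPKM (log2 fold change 0.13, 95% interval 0.01 to 0.26, and 0.078 without β-gal replicate 1). In both, the Aloxe3 libraries lay within a narrow band above the β-gal range. P4hb (chromosome 11, 120560298 to 120573253), the founding disulfide isomerase and the most abundant of the 4, had 253, 275 and 262 RPKM against 273, 277 and 255 RPKM, with overlap (log2 fold change 0.03, 95% interval -0.09 to 0.14). With any 1 library left out it lay between -0.001, when β-gal replicate 1 was omitted, and 0.063, when Aloxe3 replicate 9 was.

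The sensors and transcription factors had log2 fold changes from -0.06 to 0.09, with a median of 0.063. None of the 7 had an unadjusted p under 0.05, against 12.7% of all genes tested, and 1 (14.3%) had non-overlapping groups, against 19.9%. Ern1 (chromosome 11, 106394650 to 106487852) had 18.5, 18.7 and 18.4 RPKM with β-gal and 19.2, 19.5 and 19.6 RPKM with Aloxe3. Its groups did not overlap, with SDs of 0.15 and 0.2 RPKM (log2 fold change 0.07, 95% interval -0.01 to 0.14, adjusted p = 0.433 from limma).

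Atf6 had 16.7, 16.4 and 16.2 RPKM against 16.6, 17.6 and 16.4 RPKM. Eif2ak3, at 5.83, 6.36 and 6.22 RPKM against 6.26, 6.23 and 5.12 RPKM, was the only gene of this group with a negative log2 fold change (-0.06, SE 0.073), and Aloxe3 replicate 9 alone lay below the β-gal range. Xbp1, at 23.9, 25.6 and 25.6 RPKM against 27.7, 24.8 and 25.2 RPKM, also overlapped. These values count all Xbp1 reads, and the spliced form was not separated.

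Atf4 (chromosome 15, 80255184 to 80257541), whose protein is controlled mainly by translation, was abundant as mRNA, with 195, 212 and 193 RPKM with β-gal and 194, 220 and 226 RPKM with Aloxe3 (log2 fold change 0.09, 95% interval -0.06 to 0.25). It was 0.159 without Aloxe3 replicate 7 and 0.048 without Aloxe3 replicate 9. Ddit3 (chromosome 10, 127290774 to 127296288), encoding CHOP, had 110, 116 and 99.7 RPKM against 109, 118 and 113 RPKM (log2 fold change 0.06, 95% interval -0.08 to 0.20), between 0.003 (without β-gal replicate 3) and 0.11 (without β-gal replicate 2) with 1 library left out. For both, values of each group fell inside the range of the other. Atf3, a stress-induced factor of the same family, had 25.7, 26.1 and 20.8 RPKM against 24.6, 26.9 and 24.8 RPKM.

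The 4 targets of ATF4 and CHOP had 2 positive and 2 negative log2 fold changes, with a median of 0.049. Ppp1r15a (GADD34, chromosome 7, 45522916 to 45526268), which recruits the phosphatase that reverses eIF2 phosphorylation, had 31.3, 32.9 and 28.1 RPKM with β-gal and 32.6, 39.6 and 37.8 RPKM with Aloxe3. Aloxe3 replicate 7 lay below β-gal replicate 2, so the groups overlapped (log2 fold change 0.24, 95% interval 0.06 to 0.43, adjusted p = 0.3 from limma). Chac1 (chromosome 2, 119351229 to 119354381), a glutathione-degrading enzyme, had 23.6, 25.7 and 19.5 RPKM against 23.2, 26.0 and 25.9 RPKM (log2 fold change 0.13, 95% interval -0.09 to 0.35). This value was 0.022 without β-gal replicate 3 and 0.211 without β-gal replicate 2.

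Asns (chromosome 6, 7675169 to 7693254), asparagine synthetase, had 62.9, 59.8 and 57.7 RPKM against 56.1, 59.7 and 56.9 RPKM, a log2 fold change of -0.06 (95% interval -0.16 to 0.04) that was -0.03 without β-gal replicate 1. Trib3 (chromosome 2, 152337422 to 152344032), a pseudokinase that binds ATF4, had 82.9, 87.0 and 79.1 RPKM against 78.9, 85.8 and 79.0 RPKM, a log2 fold change of -0.03 (95% interval -0.15 to 0.09) that ranged from -0.07 (without Aloxe3 replicate 8) to 0.003 (without β-gal replicate 2) with 1 library left out. The groups overlapped in both genes.

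Genes of ER-associated degradation, which return misfolded proteins to the cytosol for the proteasome, ranged from -0.07 to 0.29 in log2 fold change together with the translocon genes (9 genes, median 0.051). Herpud1 (chromosome 8, 94386438 to 94395377), which organizes the degradation complex, had 42.3, 48.4 and 42.5 RPKM with β-gal and 48.8, 59.0 and 56.3 RPKM with Aloxe3. Its groups were separated by a narrow gap, the mean was 23.1% higher, and the log2 fold change was 0.29 (95% interval 0.11 to 0.48, adjusted p = 0.249 from limma). It was the only gene of the 9 with an unadjusted p under 0.05 (11.1%), a share near the 12.7% of all genes tested.

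Syvn1 (HRD1, chromosome 19, 6046576 to 6053712), the ubiquitin ligase of this complex, had 26.8, 29.4 and 26.7 RPKM against 28.6, 29.8 and 30.9 RPKM (log2 fold change 0.10, 95% interval -0.01 to 0.22). Its adaptor Sel1l (chromosome 12, 91806043 to 91849157) had 22.8, 26.3 and 24.8 RPKM against 26.4, 29.9 and 25.7 RPKM (log2 fold change 0.14, 95% interval -0.02 to 0.31, 0.078 without Aloxe3 replicate 8 and 0.09 without β-gal replicate 1). Both overlapped through a β-gal replicate 2 value that was the highest of its group.

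Edem1, a lectin that delivers glycoproteins to degradation, had 26.0, 27.1 and 26.5 RPKM against 26.0, 24.9 and 24.9 RPKM (log2 fold change -0.07, SE 0.036). The derlins Derl1, Derl2 and Derl3 had log2 fold changes of 0.00, 0.05 and 0.08, all with overlap, and Derl3 had its lowest value, 15.7 RPKM, in β-gal replicate 1. Sec61a1 (chromosome 6, 88503579 to 88518905), the pore of the translocon, had 52.2, 55.0 and 53.1 RPKM against 54.5, 49.8 and 51.1 RPKM (log2 fold change -0.04, 95% interval -0.15 to 0.06), between -0.081 (without Aloxe3 replicate 7) and -0.017 (without Aloxe3 replicate 8) with 1 library left out. Sec61b, a second subunit, had a log2 fold change of 0.00 (SE 0.077). Both translocon genes overlapped between groups.

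The libraries themselves differed in the level of the whole list. Relative to the β-gal mean of each gene, the median deviation over the 35 genes on the log2(RPKM + 1) scale was -0.052, 0.064 and 0.001 in the β-gal libraries and 0.072, 0.134 and 0.06 in the Aloxe3 libraries, while over all genes tested it stayed between -0.012 and 0.015. Aloxe3 replicate 8 held the highest value of 21 of the 35 genes, and β-gal replicate 1 the lowest of 18. β-gal replicate 2, with a median of 0.064, was not separated from Aloxe3 replicates 7 and 9. Without Aloxe3 replicate 8 the number of genes with an unadjusted p under 0.05 was 4 of 35 (11.6% of all genes tested), and without β-gal replicate 1 it was 5 (9.34% of all genes). Without β-gal replicate 2 it was 14 (8.18% of all genes). The median log2 fold change of the list was positive with any 1 library left out, from 0.066 to 0.128.

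**Figure D3:**
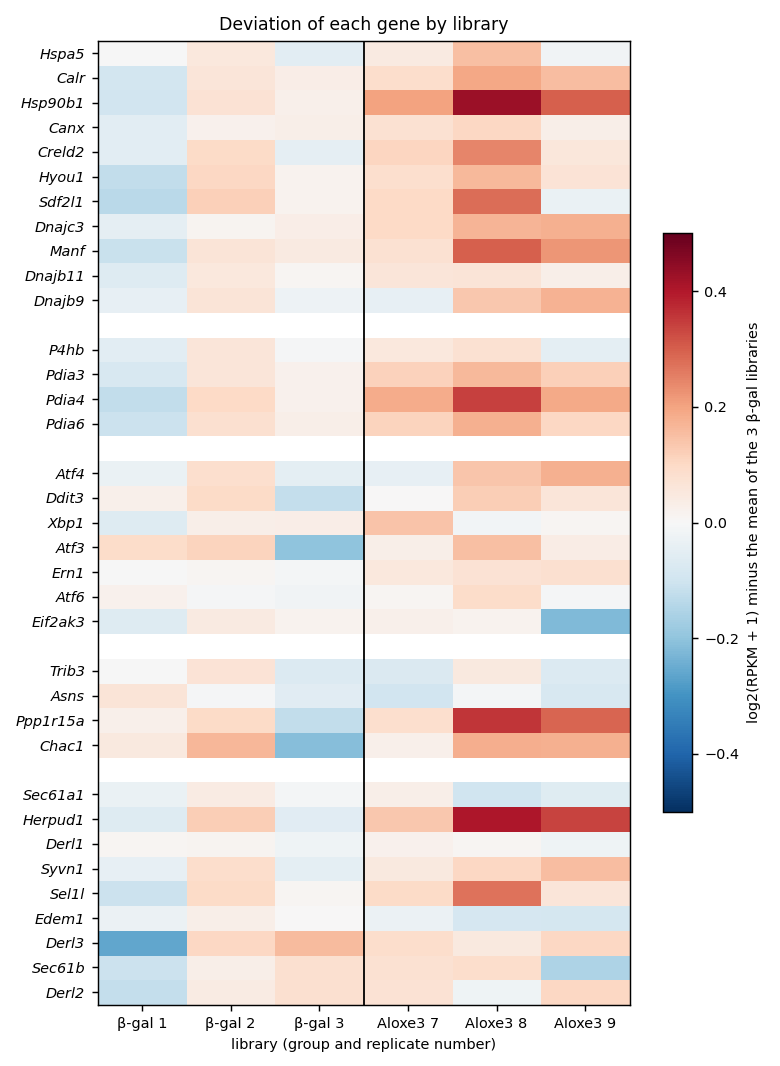
Deviation of log2(RPKM + 1) from the mean of the 3 β-gal libraries for each gene (rows, blocks from top to bottom: ER chaperones, disulfide isomerases, sensors and transcription factors, ATF4 and CHOP targets, ER degradation and translocation) in each library (columns). Red is above and blue below the β-gal mean, and the column of Aloxe3 replicate 8 is the reddest, with Hsp90b1, Herpud1, Ppp1r15a and Pdia4 the darkest cells.

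Further genes of the pathway were set beside the list, each list led by its gene with the smallest p. Of 28 other ATF4 targets tested (of 30 listed), 0 passed an adjusted p of 0.05, where 0.394% of all genes did, and the median log2 fold change was 0.006. Gdf15, a secreted stress cytokine, had the smallest p of these, with 60.2, 54.2 and 51.0 RPKM with β-gal and 62.9, 64.6 and 63.7 RPKM with Aloxe3 (log2 fold change 0.21, adjusted p = 0.254 from limma). The 13 genes of the eIF2 kinases, eIF2 and eIF2B had a median of -0.025, led by Eif2b5, a subunit of the exchange factor of eIF2, at -0.13 (adjusted p = 0.333 from limma). The other ER stress transcription factors and proteases (11 of 12 tested) had a median of -0.007, with Creb3l3, a liver transcription factor of the ER membrane, at 0.13 (adjusted p = 0.587 from limma).

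Other ER folding enzymes (34 of 36 tested) had a median of -0.006, with Txndc12 at 0.12 (adjusted p = 0.313 from limma). The other ER degradation genes (34 of 34) had a median of -0.002. Ube2g2, a ubiquitin-conjugating enzyme of this pathway, had 38.9, 40.6 and 37.0 RPKM with β-gal and 34.3, 33.2 and 33.7 RPKM with Aloxe3, without overlap (log2 fold change -0.20, adjusted p = 0.15 from limma). The other translocon and signal peptide genes (32 of 33) had a median of -0.014, led by Rpn2 at -0.08 (adjusted p = 0.406 from limma).

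Apoptosis genes linked to ER stress (12 of 13 tested) had a median of 0.01, and ER calcium genes (8 of 9) one of 0.005, with Bax, a proapoptotic BCL2 family protein, at -0.09 (adjusted p = 0.433) and Stim1, the calcium sensor of the ER, at 0.15 (adjusted p = 0.254, both from limma). None of these 8 lists had a gene past the threshold, which at 0.394% of all genes is near the background for lists of this size. Their shares of genes with non-overlapping groups ran from 0% to 30.8% (eIF2 kinases, eIF2 and eIF2B). The share was 26.5% in the other ER folding enzymes (5 higher and 4 lower with Aloxe3). In the 35 listed genes it was 25.7%, all higher, and in all genes tested 19.9%. The chaperones of the cytosol and mitochondria (21 of 22 tested) had a median of 0.039 with 15 of 21 positive, led by Hsp90aa1 at 0.11 (adjusted p = 0.315 from limma). All 8 tested subunits of the cytosolic chaperonin CCT were negative (-0.12 to -0.05, median -0.075), led by Cct7 at -0.12 (adjusted p = 0.448 from limma). The 11 ER chaperone genes, all positive, and the 8 CCT genes, all negative, did not overlap in log2 fold change. The other ER folding enzymes ran from -0.11 to 0.16, with 47.1% positive, against 52.4% of all genes tested. The lists were chosen with earlier results of these data known, and the difference between them was not tested.

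**Figure D4:**
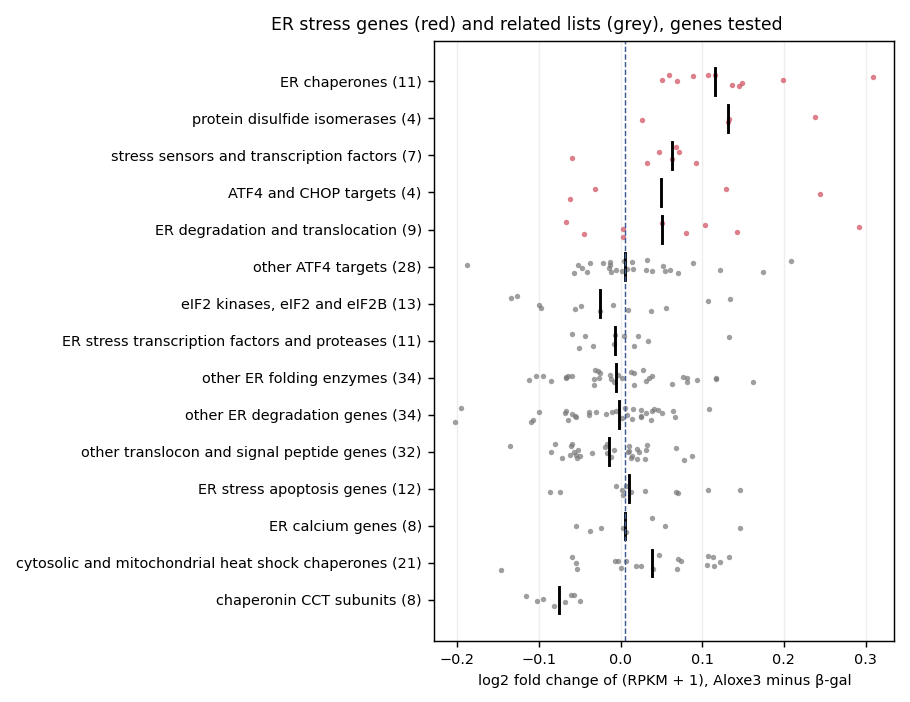
Log2 fold change of RPKM + 1 (Aloxe3 minus β-gal) of each tested gene in the 5 role groups of the list (red) and in 10 related lists (grey), with the number of genes tested in parentheses and a black bar at the median. The dashed line marks the median of all genes tested, and the bars of the ER chaperones and disulfide isomerases lie at 0.116 and 0.132, right of all grey bars.

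Lastly, the values were read against the promoter sequences shown above. The 11 genes with ERSE or ERSE-II all had a positive log2 fold change, 0.05 to 0.31 with a median of 0.132, and 5 of them (45.5%) had non-overlapping groups, against 19.9% of all genes tested. In the 19 genes with a window and neither element, 15 were positive, the median was 0.067, and 3 (15.8%) had non-overlapping groups, a share near that of all genes. Most of the 11 genes with an element were ER chaperone genes. All 11 ER chaperone genes of the list were positive, as were all 4 disulfide isomerase genes. Sdf2l1 and Dnajb9, chaperone genes with a window and neither element, were at 0.12 and 0.09. Element and role cannot be told apart here, and the difference between these groups of genes was not tested. Hsp90b1, with 2 ERSE, and Herpud1, with ERSE-II and CARE, had the highest values of the list, whereas Hspa5, also with ERSE, was at 0.06. Pdia4 and Ppp1r15a, at 0.24 each, had neither ERSE nor CARE in the window. The 5 genes with CARE ranged from -0.06 (Asns) to 0.29 (Herpud1), with a median of 0.072. Outside the list, 6 of the 28 other genes with ERSE were found among the genes tested by symbol, with log2 fold changes of 0.00 to 0.09. These are descriptions of the genes, and no factor's binding was measured.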

How the data were processed

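Per the labels and the study's methods, the authors sequenced poly-A RNA as single reads of 50 bases, aligned them with STAR 2.0.4b to Ensembl release 76 (GRCm38.p2), kept reads with 1 alignment and 1 gene (featureCounts 1.4.5), and deposited RPKM values. The step from counts to RPKM and the strand setting are not given in the sources used here. Library size and reads per gene were derived from the whole-number steps of the values, with exon lengths of GENCODE M21 (22 of the 35 genes) or, where these gave no whole reads, the smallest length that did (13 genes). Symbols and positions come from GENCODE M21 (40254 identifiers matched, 1134 did not).

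log2(RPKM + 1) was tested in the 12693 genes whose mean reached 0.5 RPKM with limma 3.58.1 (lmFit, eBayes with trend, R 4.3.3), two-sided, with Benjamini-Hochberg adjustment over these genes and a threshold of 0.05. The pseudocount of 1 understates changes of low values. The 6 libraries entered as 3 against 3 without covariates. The fit was tested on simulated reads. The genes, lists and tests were chosen with earlier results of these data known. Genes given in full were, per role, the 3 with the smallest p and the most abundant one, and per related list the one with the smallest p. Other genes given in every library were chosen after their values were seen. Alternatives were another pseudocount, 2 other filters, median and quantile scaling, eBayes without trend, voom on derived reads, and each library left out. Sequences are from RefSeq (GRCm38.p6). A hepatocyte marker of the list is not reported here.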

Additional observations from a re-analysis of the deposited data

How the results depend on the processing

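Most results kept their direction and their side of the threshold. The number of listed genes with an adjusted p under 0.05 was 0 in every alternative except voom on derived reads, which gave 3 (Hsp90b1, Herpud1 and Pdia4). The number of all genes past the threshold, 50, was 7 without a filter on low values, 173 with voom, and 6 to 19 with 1 library left out. With 1 library left out, 4 to 14 listed genes had an unadjusted p under 0.05, and 10 to 16 had non-overlapping groups, a count that rises with fewer libraries (26.6% to 32.9% of all genes tested then do not overlap). In the other alternatives these counts were 8 to 12 (8.76% to 14.5% of all genes tested) and 9 to 11 (14.3% to 21.4%). The median log2 fold change of the list ranged from 0.066 to 0.128, and that of Aloxe3 from 3.93 to 4.61 with an adjusted p of at most 0.000901 in limma. Among the 19 genes given in full, the sign changed for P4hb without β-gal replicate 1 (-0.001; -0.001 to 0.063 with any 1 library left out) and for Trib3 without β-gal replicate 2 (0.003; -0.07 to 0.003). Adjusted p over the alternatives ranged from 0.00768 to 0.363 for Hsp90b1, from 0.0379 to 0.486 for Herpud1 and from 0.0473 to 0.475 for Pdia4. The cause of these changes was not tested. No paired analysis was possible because the groups share no replicate numbers. With 526 reads or more behind each value of the list, counting error was at most 4.36%, and it is contained in the spread between the 3 libraries of a group.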
